A study of Mus musculus with 12 samples.

Results

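Interferon-responding fibroblasts were a minority of the synovial stromal cells of mouse joints during serum transfer-induced arthritis (STIA), an arthritis caused by antibodies in serum from K/BxN mice. A cell was counted as one when it had more than 500 and fewer than 5000 detected genes, a unique molecular identifier (UMI, the tag that counts 1 captured RNA molecule) for at least 4 of 7 fibroblast genes (Dcn, Lum, Gsn, Fbln1, Serpinf1, Pdpn and Pdgfra), and a UMI for at least 4 of 7 interferon-induced genes (Ifit1, Ifit2, Ifit3, Isg15, Rsad2, Irf7 and Usp18). Of 21042 deposited cells, 20213 were within the limits on detected genes and 16430 of those met the fibroblast criterion (the fibroblast gate). The complete rule was met by 153 cells, 0.931% of the gate (Wilson 95% interval 0.795 to 1.09%, counting error only).

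The cells were CD45-negative cells from hind-limb joints of wild-type C57BL/6 mice, males aged 8 to 10 weeks, so most immune cells had been removed before capture. The libraries were labelled rest (day 0, no serum), peak (days 7 to 9 after serum), resolving (day 15) and resolved (day 22), with 3 libraries per label, and each library pooled cells from the joints of 3 animals. Barcodes carried suffixes 1 to 12, and libraries with neighbouring suffixes (1 to 3, 4 to 6, 7 to 9 and 10 to 12, here called suffix runs) held libraries of different labels. Across fibroblast-gate sums, libraries of the same run but different labels deviated together from their label means in 12 of 12 pairs (r 0.477 to 0.849 over 2546 genes), against a median r of -0.238 for pairs from other runs. What the runs stand for is not given in the sources used here, and whether every label belongs to its library was not tested. The groups are therefore named as labelled, and each result by label is given beside the run. Every library had a median of 5358 UMIs per deposited cell and held 1277 to 2817 cells, and no barcode was shared between libraries.

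Interferons act on a cell through surface receptors that carry JAK kinases. Type I interferon leads to a complex that holds STAT2 and IRF9 and binds interferon-stimulated response elements in promoters, and interferon gamma acts through a different element. The induced genes encode proteins that bind viral RNA, block replication, load peptides on class I molecules and attract lymphocytes through the receptor CXCR3, while USP18 and SOCS proteins dampen the signal. In joints, synovial fibroblasts make up the lining, marked by lubricin (Prg4), and the sublining, marked by Thy1 and Cd34.

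The response element is shown first because most of the rule genes share it. Its core, GAAA followed by any 2 bases and a second GAAA, was searched on both strands in the 250 bases before each start site in the RefSeq promoter table (GRCm38.p6). It was found for 4 of the 6 rule genes with an entry, namely Ifit1, Ifit3, Isg15 and Rsad2, and not for Ifit2 and Irf7. Over the whole table, 978 of 32851 promoters (2.98%) held it. The sequences run 5′ to 3′ toward the start site, with capitals marking the core or its reverse complement, and Cxcl10, a CXCR3 ligand that the rule did not use, is added for comparison.
Ifit1 (chr19:34640639-34640888, plus strand): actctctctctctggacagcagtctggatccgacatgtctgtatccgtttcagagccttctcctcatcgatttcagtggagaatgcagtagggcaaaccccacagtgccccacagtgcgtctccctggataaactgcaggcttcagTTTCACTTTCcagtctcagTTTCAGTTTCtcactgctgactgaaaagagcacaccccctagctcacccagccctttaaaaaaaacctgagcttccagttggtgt
Ifit3 (chr19:34583279-34583528, plus strand): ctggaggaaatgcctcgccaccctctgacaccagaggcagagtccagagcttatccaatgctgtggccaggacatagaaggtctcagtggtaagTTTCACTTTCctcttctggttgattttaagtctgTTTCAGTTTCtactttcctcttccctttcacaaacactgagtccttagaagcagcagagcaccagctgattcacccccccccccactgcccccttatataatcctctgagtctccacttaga
Isg15 (chr4:156200819-156201068, minus strand): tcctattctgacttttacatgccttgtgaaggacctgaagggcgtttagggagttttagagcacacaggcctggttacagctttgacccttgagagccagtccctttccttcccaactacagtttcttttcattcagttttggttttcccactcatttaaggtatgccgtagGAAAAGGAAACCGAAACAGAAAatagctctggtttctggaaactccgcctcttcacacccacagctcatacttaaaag
Rsad2 (chr12:26456453-26456702, minus strand): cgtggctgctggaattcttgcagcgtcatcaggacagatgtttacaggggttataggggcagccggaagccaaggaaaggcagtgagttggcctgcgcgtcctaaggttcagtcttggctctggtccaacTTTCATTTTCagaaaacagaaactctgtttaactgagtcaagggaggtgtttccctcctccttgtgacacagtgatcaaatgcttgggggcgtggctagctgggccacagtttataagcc
Cxcl10 (chr5:92348890-92349139, minus strand): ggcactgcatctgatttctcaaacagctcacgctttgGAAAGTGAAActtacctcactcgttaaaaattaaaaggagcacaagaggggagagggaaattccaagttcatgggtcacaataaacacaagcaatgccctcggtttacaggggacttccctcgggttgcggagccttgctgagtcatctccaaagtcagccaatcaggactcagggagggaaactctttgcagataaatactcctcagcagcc
Ifit1 and Ifit3 each held 2 matches, Isg15 held 3 and Rsad2 and Cxcl10 held 1 each. Among the lists of interferon-related genes, the core was present for 14 of 29 antiviral effectors and 9 of 10 interferon-inducible GTPases with an entry, but for 0 of 5 nucleic acid sensors and 3 of 16 class I genes. It was present for 1 of 12 inflammatory chemokines and cytokines and 0 of 12 collagens and matrix genes. A looser form, GAAANNG, stood in 15456 of the 32851 promoters. A match describes the letters in this window only.

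Members were found in every library, at very different rates. The counts were 14, 13 and 5 cells in the rest libraries, 1, 16 and 6 in the peak libraries, 7, 20 and 8 in the resolving libraries, and 12, 44 and 7 in the resolved libraries. As a share of the fibroblast gate these were 0.976, 0.859 and 0.484% at rest, 0.0938, 1.15 and 0.311% at peak, 0.731, 1.35 and 0.725% in resolving, and 1.10, 1.86 and 0.656% in resolved libraries. The library labelled resolved 2 alone gave 28.8% of the members, and peak 1 gave a single cell of 1066. Of the 8588 UMIs of that cell, 2220 were Hbb-bs, 946 Hba-a1 and 851 Hba-a2, which encode haemoglobin. Peak 1 had 0 members with at least 5 fibroblast genes, without cells of another class, or after thinning to 2000 UMIs per cell.

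**Figure D1:**
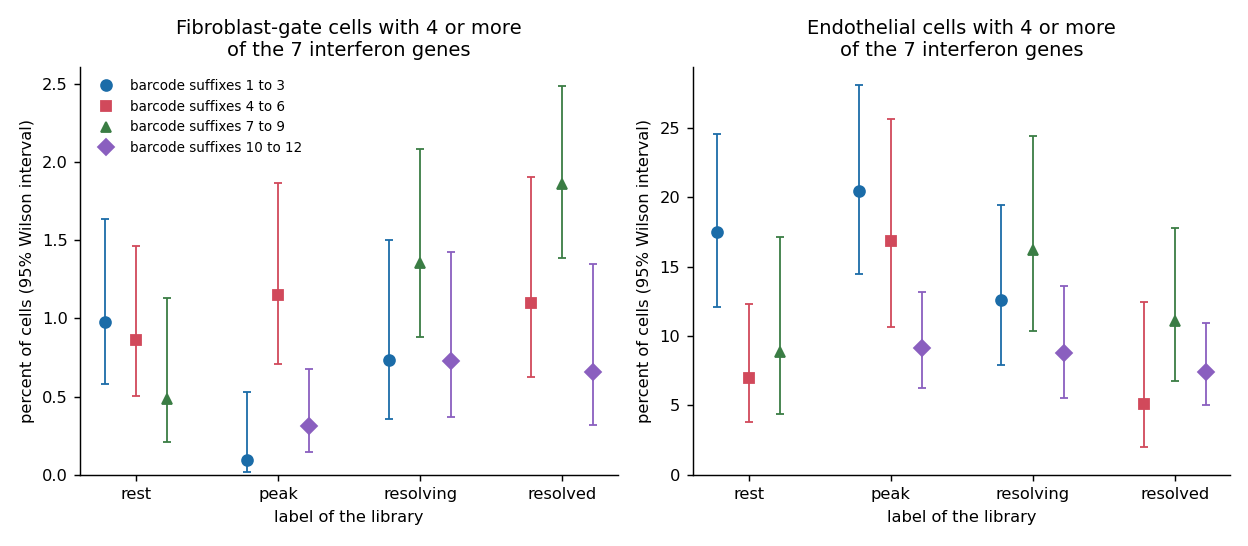
Percent of fibroblast-gate cells (left) and of endothelial cells (right) with at least 4 of the 7 interferon genes, by label. Each point is 1 library with its Wilson 95% interval, and colour and marker give the suffix run. Points of different labels overlap in the left panel, where the highest is 1.86%, and the endothelial shares lie between 5.13 and 20.5%.

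The question of the design, whether the cells changed in number with the course of the arthritis, was asked over libraries. The mean share was 0.773 ± 0.257% at rest, 0.519 ± 0.559% at peak, 0.937 ± 0.361% in resolving and 1.20 ± 0.608% in resolved libraries (SD, n = 3 each). None of the 3 labels was distinguishable from rest, with exact two-sided permutation p = 0.6, 0.7 and 0.4 and Benjamini-Hochberg adjusted p = 0.7 for each. With 3 libraries against 3, p cannot go below 0.1, so no difference could have passed. By run, the mean shares were 0.601, 1.04, 1.23 and 0.564%, and the run accounted for 0.389 of the variance among libraries (exact permutation p = 0.25, n = 12). Without rest 3, the only library of its run with a low share, this became 0.707 (exact permutation p = 0.0145), and without the gate cells that held markers of another cell class it was 0.653 (exact permutation p = 0.0295). With the run as a block and labels exchanged within runs, peak minus rest was -0.0354 percentage points (exact permutation p = 0.901) against -0.254 without the block. Resolving minus rest was 0.361 (exact permutation p = 0.494) with the block and 0.164 without it, and resolved minus rest was 0.498 (exact permutation p = 0.265) with it.

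The number of cells fell off steadily with the number of the 7 genes detected. In the fibroblast gate, 12848 cells had none of them, 2764 had 1, 508 had 2 and 157 had 3. Then 79 cells had 4, 45 had 5, 24 had 6 and 5 had all 7. The 157 cells just outside the rule held a median of 5 UMIs of the 7 genes together (3 to 62), and the 79 just inside it held 10 (4 to 124). The rule thus drew a line through counts that fell without a gap. Whether separate groups of cells lie beneath these counts was not tested.

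**Figure D2:**
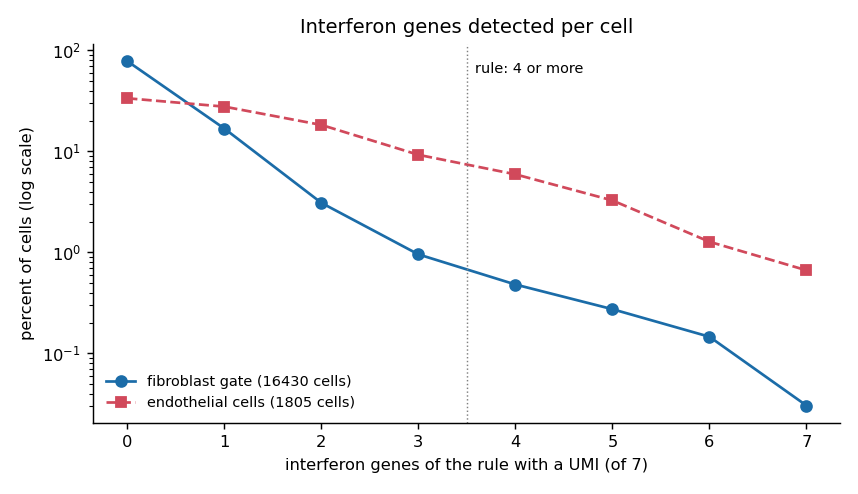
Percent of cells (log scale) against the number of the 7 rule genes with a UMI, for the fibroblast gate (circles) and endothelial cells (squares). The dotted line marks the rule, and beyond it the fibroblast points run from 0.481% at 4 genes to 0.0304% at 7.

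Outside the fibroblast gate, most cells that met the interferon criterion were endothelial cells. These were defined by at least 3 of 7 endothelial markers and fewer than 4 fibroblast genes. Of 1805 such cells, 201 (11.1%, Wilson 95% interval 9.77 to 12.7%) had at least 4 of the interferon genes, and only 12 more such cells lay outside both gates. The fibroblast share was lower than the endothelial share in 12 of 12 libraries, by a mean of 10.9 percentage points, which is written as fibroblast minus endothelial = -10.9 (exact sign-change permutation p = 0.000488, the smallest that 12 libraries can give). Endothelial cells were shallower, with a median of 3080 UMIs against 7342 in members and 5924 in the other fibroblasts. When each cell was thinned to 2000 UMIs, 217 gate cells and 210 endothelial cells below that depth were left out. Both cell types were defined anew on the thinned counts, so the cells counted in each also changed. In rest 1 the fibroblast gate went from 1434 to 1175 cells and the endothelial cells from 143 to 152. The mean shares were then 0.289 and 6.35% and the order held in 12 of 12 libraries (exact sign-change permutation p = 0.000488). Only 42 of the members still met the rule after thinning.

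The shares of the 2 cell types did not move together over libraries in a detectable way. Pearson's r was -0.03 (permutation p = 0.922) and Spearman's rho 0.04 (permutation p = 0.905) over 12 libraries. Without resolved 2 and peak 1, the libraries farthest from the median member share, r was 0.486 (permutation p = 0.156, 10 libraries). Peak 1 showed the contrast most plainly, with 27 of 132 endothelial cells and 1 of 1066 fibroblast-gate cells meeting the interferon criterion.

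The label fibroblast was checked against markers. Dcn, the matrix proteoglycan decorin, was detected in 99.3% of members, Serpinf1 in 97.4% and Gsn in 100%, shares close to the 99.9, 95.5 and 98.9% of other gate cells. These shares were partly set by the gate. Dcn also had a UMI in 57.3% of endothelial cells, and the part of free RNA in the shares was not tested. Ptprc, which encodes CD45, was at 0 in 153 of 153 members, but Ptprc had a UMI in only 0.0799% of other gate cells. At least 1 immune marker had a UMI in 19.6% of members and 11.96% of others, at least 2 in 3.92 and 1.22%, and at least 3 in 0 of 153 members and 32 others. The part of immune RNA in the results was not tested. Endothelial genes did accompany the members. At least 3 of 7 endothelial markers were present in 21 of 153 members (13.7%) and in 169 of 16277 other gate cells (1.04%). Of the 190 gate cells so marked 11.1% were members, against 0.813% of the other 16240. The 7 endothelial markers had ratios of mean level in members over other fibroblasts of 5.67 to 9.39, though 0 of 7 were higher in 6 of 6 libraries, with Cdh5 (VE-cadherin) at 164, 0, 33.4, 59.5, 67.5 and 153 counts per 1000000 UMIs (CPM) in rest 1, rest 2, peak 2, resolving 2, resolved 1 and resolved 2, against 4.93 to 12.1 in other fibroblasts. Results are therefore also given without all gate cells of this kind. Whether these barcodes held a cell of each type was not tested.

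What else the members expressed was described in the 6 libraries with at least 10 members, which held 119 of the 153 (rest 1 and 2, peak 2, resolving 2, resolved 1 and 2). UMIs were summed per library and scaled to CPM, and a ratio is the mean CPM in members over the mean CPM in the other 9157 fibroblast-gate cells of those libraries. The members were chosen by this contrast, so it carries no test. Of 10572 genes with at least 200 UMIs, 133 (1.26%) had a ratio of means of at least 2 and were higher in 6 of 6 libraries, which is called past 2 from here on. Of 2575 genes of at least 50 CPM, 33 (1.28%) had a ratio of at most 0.5 and were lower in 6 of 6, called past 0.5. The median ratio of all genes was 1.04. The minimum of 200 UMIs was set over all fibroblast-gate cells of these libraries, and list members below it are not counted. Without the endothelial-marked cells 112 genes were higher, 102 of them among the 133, and 29 were lower.

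The 7 rule genes are given as the values that chose the cells. Isg15, a ubiquitin-like protein that is attached to other proteins, stood at 526, 365, 574, 817, 993 and 879 CPM in members of rest 1, rest 2, peak 2, resolving 2, resolved 1 and resolved 2, and at 11.3 to 24.0 CPM in the other fibroblasts. Ifit1, which binds foreign RNA, stood at 1184, 407, 174, 698, 723 and 681 CPM against 4.35 to 11.2. The ratios were 116 for Rsad2 (viperin), 81.0 for Ifit1, 55.3 for Ifit3, 36.9 for Isg15, 35.4 for Usp18, 26.4 for Irf7 and 14.3 for Ifit2. Among members, Isg15 was detected in 88.9% of cells, Ifit1 in 85.0%, Irf7 in 81.0%, Ifit3 in 75.8%, Usp18 in 66.0%, Rsad2 in 40.5% and Ifit2 in 33.3%. In other gate cells the same shares ran from 0.664% for Rsad2 to 5.70% for Isg15.

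Upstream of these genes, the ligands were not seen and the receptors differed little. All 9 interferon genes looked for, Ifnb1, Ifng and Ifnl2 among them, had 0 UMIs in the 6 member sums, where 3 counts correspond to 8.37 to 32.9 CPM. Of 7 receptor and JAK genes considered, 0 reached a ratio of 2, and the ratios of the highest were 1.36 for Jak2, 1.34 for Ifnar1, 1.30 for Ifngr1 and 1.13 for Jak1. Downstream of the receptors, Stat2 stood at 32.9, 8.48, 33.4, 37.9, 48.2 and 39.1 CPM in members and at 4.67 to 8.59 CPM in others, a ratio of 4.98. The lowest member value, in rest 2, lay within the range of the others. Irf9 had a ratio of 3.32, higher in 6 of 6 libraries, and Irf2 had 2.06 but was higher in 5 of 6 libraries.

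Of 7 nucleic acid sensors, 3 were past 2, namely Zbp1 (ratio 10.2), the RNA helicase Ifih1 or MDA5 (9.94) and Ddx58 or RIG-I (4.50). Tmem173, which encodes the adaptor STING, had a ratio of 1.37. Of 25 antiviral effectors, 20 were past 2, with a median of 3.87 over the 25. The highest were Ifit3b (65.6, a near copy of Ifit3, so reads may be split between them), Ifi44 (51.1), Oasl1 (36.2, from 25 UMIs) and Cmpk2 (28.2). Of 13 genes of ISG15 conjugation and of the PARP and TRIM families, 13 had a ratio of at least 2 and 10 of these were also higher in 6 of 6 libraries, led by Trim30a (16.5) and Herc6 (12.4), the mouse ligase that attaches ISG15. Sp100, a nuclear body protein, had a ratio of 9.65.

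The interferon-inducible GTPases, which attack the vacuoles of intracellular microbes, were past 2 for 8 of the 8 considered (15 are in the files), with ratios from 11.6 to 42.8. Iigp1 stood at 515, 263, 86.8, 168, 270 and 246 CPM in members and at 3.61 to 8.32 in others. Ifi47 had a ratio of 31.5, Gbp3 of 18.2 and Igtp of 15.3. Class I antigen presentation followed more weakly, with 11 of 18 genes past 2 and a median of 3.07. The peptide transporter Tap1 had a ratio of 7.49, and the immunoproteasome subunits Psmb8 and Psmb9 had 6.97 and 5.92. Of 3 class II genes, 0 were past 2.

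**Figure D3:**
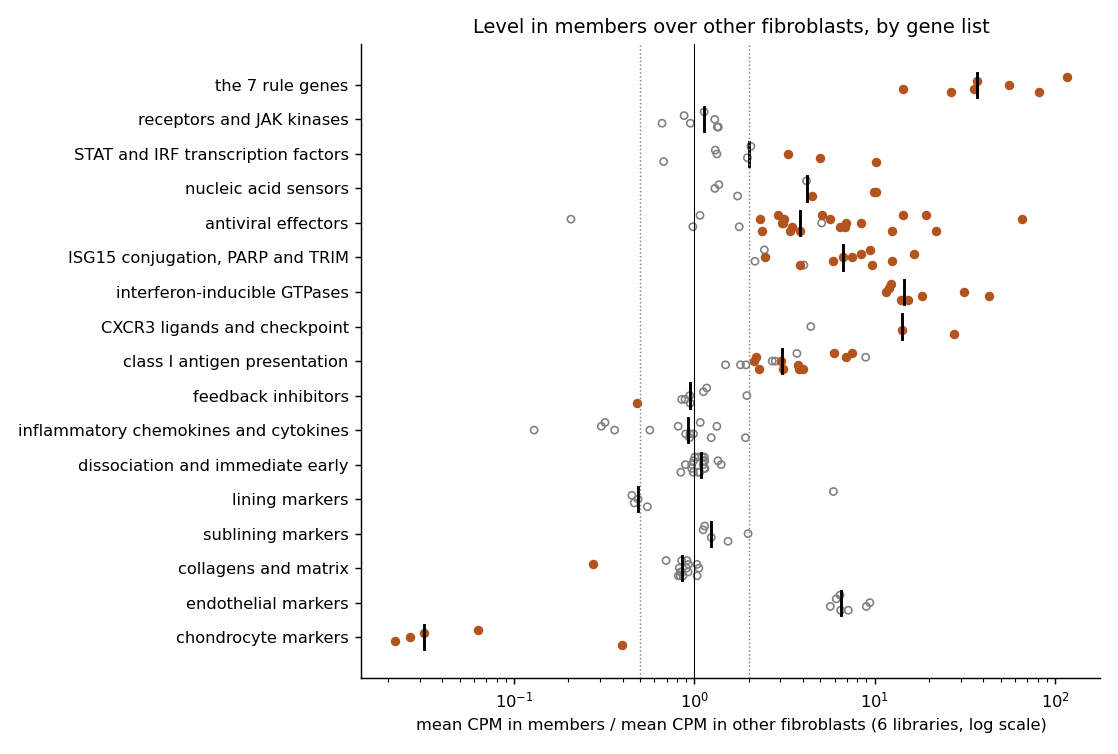
Ratio of mean CPM in members over mean CPM in other fibroblasts for each gene considered (log scale), by list. Filled points are past 2 or 0.5 with the same direction in 6 of 6 libraries, open points are not, bars are list medians and dotted lines mark 0.5 and 2. The interferon-inducible GTPases all lie to the right of 2, and the inflammatory chemokines and cytokines centre near 1.

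Chemokines of the CXCR3 group and inflammatory chemokines were listed apart. Cxcl9 and Cxcl10, which attract CXCR3-bearing T cells, had ratios of 27.6 and 14.2. Cxcl10 stood at 2335, 500.3, 347, 595, 511 and 580 CPM in members and at 42.9 to 79.3 in others, so rest 1 was far above the rest. In the 5 libraries with 5 to 8 members it stood at 295 CPM in rest 3 and 313 in resolved 3, but at 27.0 in resolving 1, 27.3 in peak 3 and 0 in resolving 3, where others stood at 30.3, 53.8 and 54.0. It was carried by few cells: 49 of 153 members had a Cxcl10 UMI, 1 cell of rest 1 gave 21.8% of all 725 UMIs and the top 5 cells gave 51.0%. That 1 cell held 158 of the 213 Cxcl10 UMIs of rest 1. Ccl5 was narrower still, with 83 UMIs in 5 cells, no UMI in rest 1, rest 2 and resolving 2, and a ratio of 4.42 that was 0.603 against other fibroblasts matched in UMIs. By contrast the sensor Zbp1 was found in 67 cells and its top cell gave 4.35% of the UMIs. Of 14 inflammatory chemokines and cytokines, which are mostly driven by NF-kB, 0 were past 2 or 0.5, with a median of 0.917. Ccl8 had the highest ratio, 1.92, at 0, 170, 13.4, 157, 9.64 and 2.79 CPM in members against 16.5 to 54.0 in others, and its ratio was 5.40 with the 11 libraries with at least 5 members. Ccl7 stood 1.08 times and Csf1 1.24 times the level in others, and Il6 1.33 times, with members of rest 1 at 1009 CPM and the other 5 libraries at 28.9 to 195.

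The feedback inhibitors considered outside the rule had a median ratio of 0.944, and 0 of 8 were past 2. Usp18 helped choose the cells, so its level is not compared with theirs. Socs1, which blocks JAK kinases, was past 0.5, at 29.6 ± 14.6 CPM against 61.7 ± 10.3 in others (SD, n = 6; ratio 0.480, lower in 6 of 6). Socs3 stood at 0.942 times, Ptpn1 at 0.947 times and Usp25 at 1.95 times the level of other fibroblasts. Genes that dissociation induces had a median of 1.09, with Atf3 at 1.35 and Egr1 at 1.14.

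**Figure D4:**
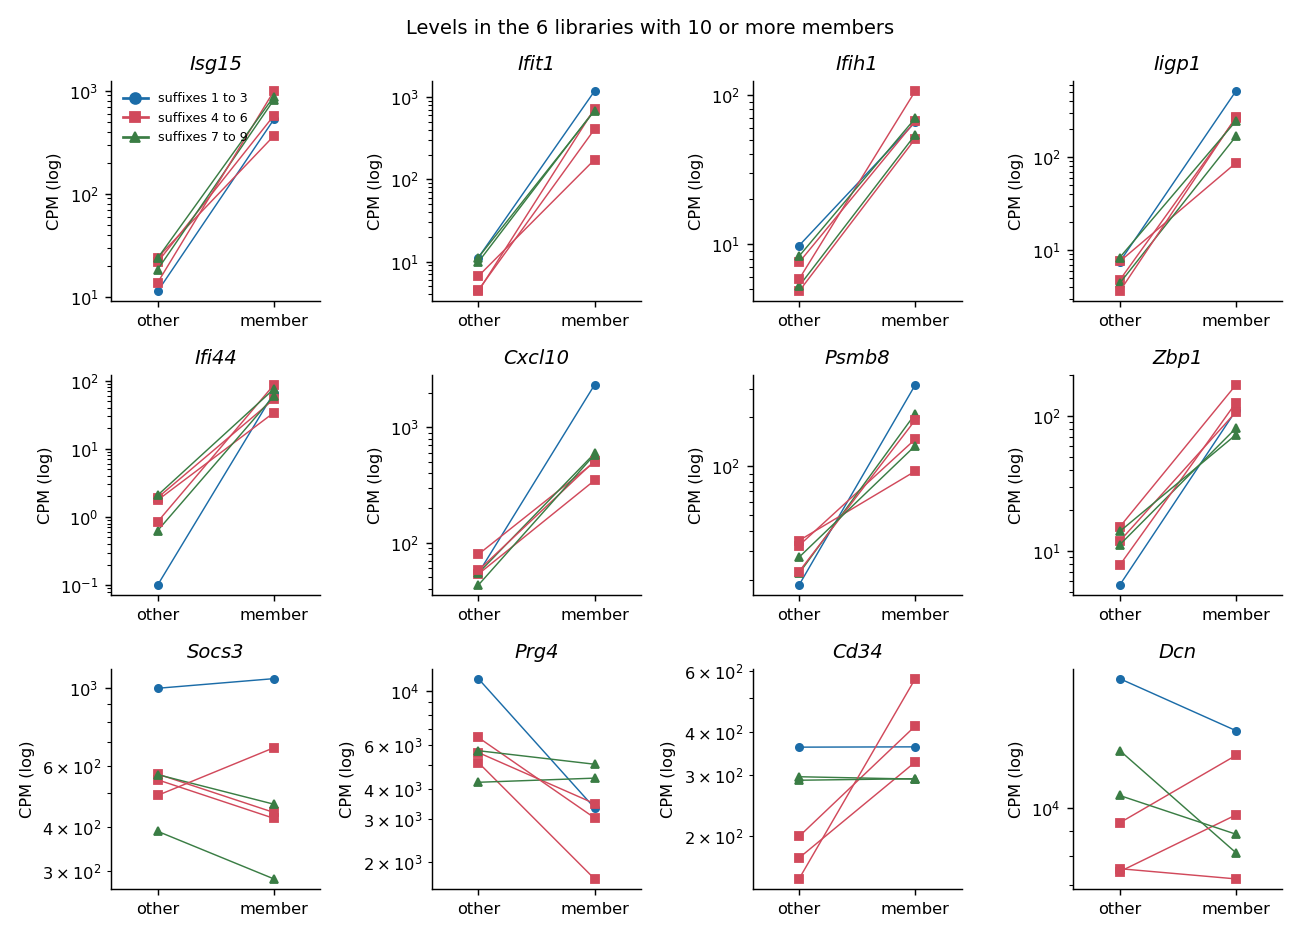
CPM (log scale) of 12 genes in other fibroblasts and in members, with a line per library for the 6 libraries with at least 10 members and colour and marker for the suffix run. For Isg15, Ifit1, Ifih1, Iigp1, Ifi44, Cxcl10, Psmb8 and Zbp1 every line rises without overlap of the groups, whereas Socs3, Prg4, Cd34 and Dcn have lines in different directions or groups that overlap.

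Markers of both fibroblast layers were present among the members. At least 2 of 5 lining markers were present in 21.6% of members, in 12.2% of other fibroblasts matched in UMIs and in 9.81% of all others, and at least 2 of 5 sublining markers in 66.0, 61.6 and 53.2%. Several lining markers were also detected in endothelial cells, Prg4 in 45.2%, Itga6 in 43.9%, Clic5 in 33.4% and Tspan15 in 32.0%, and the part of endothelial RNA in the lining share was not tested. By level, Prg4 stood at 3333, 1713, 3472, 4410, 3037 and 5025 CPM in members and at 4242 to 11218 in others, a ratio of 0.548, and the ratio was 1.22 when the 11 libraries with at least 5 members entered. A single cell of resolving 1 gave 27.8% of all Prg4 UMIs in members. Itga6, a lining marker that endothelial cells also express, had a ratio of 5.90 and 0.947 without cells that held markers of another class, while Clic5 and Tspan15 had 0.463 and 0.486. Of the sublining markers, Cd34 had a ratio of 1.53 and Thy1 of 1.24, both higher in 5 of 6 libraries, and Pi16, a marker of adventitial fibroblasts, had 1.98 but was higher in 3 of 6. Without cells that held markers of another class, 2 libraries remained. There the ratios of Cd34, Thy1, Pi16 and Dpp4 were 0.669, 0.818, 0.748 and 0.515, and that of Col14a1 was 1.23. Cd34 also had a UMI in 69.1% of endothelial cells. Of 16 collagens and matrix genes, 0 were past 2 and 1 was past 0.5, the matrix protease Mmp3 (ratio 0.275), and Fn1 and Col6a3 had ratios of 1.03 and 1.06.

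Outside the lists, the 10 genes with the highest ratio and a higher level in 6 of 6 libraries were Sp110 (15.8), Apol9b (13.3), Apol9a and Cd93 (8.67 each), Plscr2 (8.57), Mndal (7.71), Ptprb (7.39), Apold1 (6.76), Sp140 (5.78) and Adar (5.77). Sp110, Sp140, Mndal and Adar, which encodes an RNA editing enzyme, belong to families known to respond to interferon. Cd93, Ptprb and Apold1 are known from endothelium, and without endothelial-marked cells their ratios were 2.40, 1.53 and 1.11, while those of Sp110 and Mndal were 17.2 and 8.11. At the other end stood cartilage genes. All 5 chondrocyte markers were past 0.5, and the lowest outside the lists were Col11a2, Ucma, Scrg1, Lect1, Mia and Col9a3. Col11a2 had 2 UMIs in the members, a pooled ratio of 0.0235 with a counting interval of 0.00284 to 0.0847. Once all cells with markers of another class were left out, the ratios of Col9a3, Lect1 and Scrg1 were 5.21, 3.44 and 1.70 in the 2 libraries that remained.

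The core of the response element was counted over these genes too. Of the 126 genes outside the rule that were higher in members, 100 had a promoter among those searched and 27 (27.0%) held it, against 247 of 8126 genes considered (3.04%). Of the 33 lower genes, 27 had one and 2 held it. These are descriptions of a list chosen on its readout.

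Levels of genes outside the rule changed in steps with the number of rule genes detected, before the rule was reached. Over pooled fibroblast-gate cells with 0, 1, 2, 3, 4 and 5 to 7 rule genes, Bst2 (tetherin), which holds budding viruses to the cell, stood at 61.6, 111, 240, 485, 651 and 890 CPM. Psmb8 stood at 20.4, 29.1, 53.6, 84.0, 119 and 217 CPM. The summed level of the interferon-inducible GTPases was 41.7, 71.5, 188, 326, 589 and 1234 CPM. Cells below the rule thus had intermediate levels of these genes. The inflammatory chemokines and cytokines showed no such order, with sums of 6311, 5555, 5801, 5058, 6593 and 4381 CPM. Median depth rose from 5791 to 7394 UMIs between 0 and 4 rule genes, and its part was not tested.

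**Figure D5:**
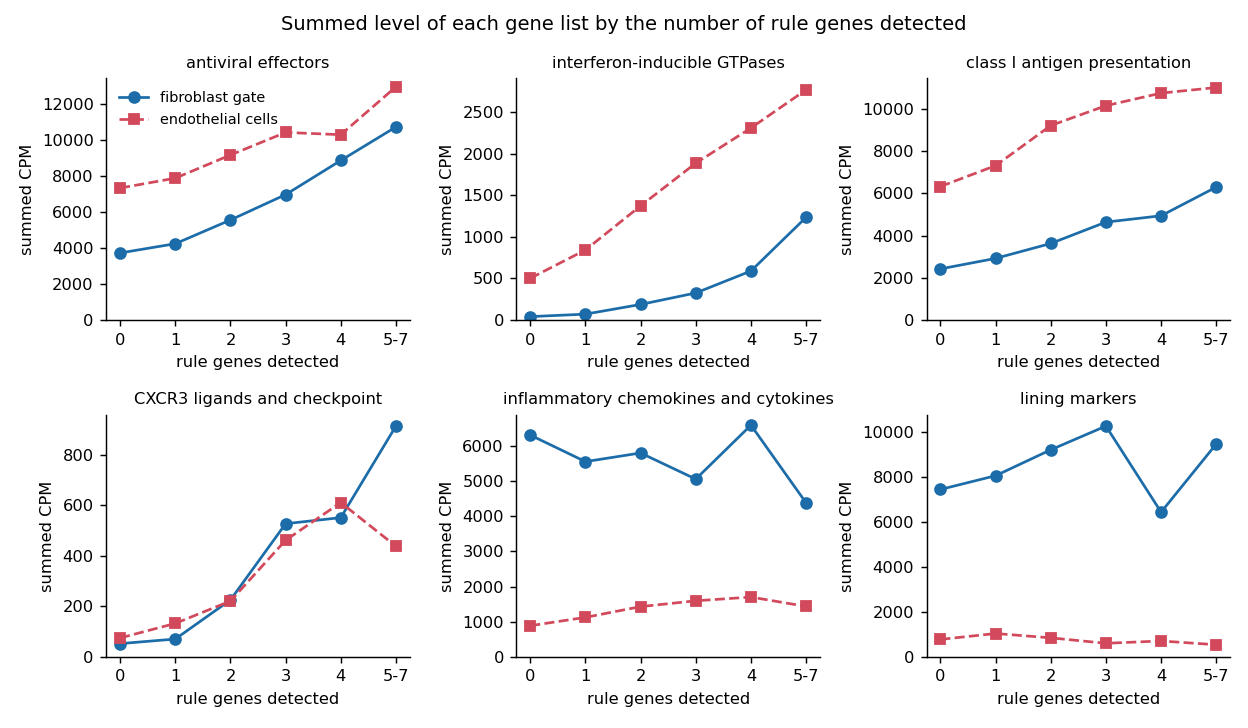
Summed CPM of 6 gene lists, rule genes left out, in pooled cells with 0 to 7 of the rule genes, for the fibroblast gate (circles) and endothelial cells (squares). In fibroblasts the interferon-inducible GTPases go from 41.7 to 1234 CPM, while the inflammatory chemokines and cytokines and the lining markers have no steady order.

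In endothelial cells the GTPase sum and Psmb8 also rose at every step, on a higher base. Bst2 did not, at 675 CPM with 3 rule genes and 640 CPM with 4 in these cells. With 0 rule genes their GTPase sum was already 502 CPM, near the 589 CPM of fibroblasts with 4, and with 5 to 7 it was 2765. The 2 kinds of responding cell were set side by side in the 5 libraries with at least 10 of each, as a description. Iigp1 stood at 256 ± 161 CPM in members and 1282 ± 333 CPM in responding endothelial cells (SD, n = 5), and was lower in members in 5 of 5. Gbp4 had 3 UMIs in the members against 83 in endothelial cells. Slfn5 was at 28.2 ± 20.9 against 283 ± 127 CPM, Irf1 at 104 ± 71.9 against 761 ± 379, and 10 of 16 class I genes were lower in members in 5 of 5. The share of all genes lower in members in 5 of 5 was not counted, so the class I count has no background beside it. Some genes stood the other way in 5 of 5 libraries. Zbp1 was at 108 ± 38 CPM in members and 15.4 ± 15.4 in endothelial cells, Ifi27l2a at 500.5 ± 33.3 against 139 ± 44.7, and Ifi205 had 158 UMIs in members and 0 in endothelial cells. Ifi205 was also at 103 CPM in other fibroblasts, so the 2 cell types also differed in it among cells with fewer than 4 rule genes. Isg15, a rule gene, helped choose both kinds of responding cell. Relative to cells of its own type with fewer than 4 rule genes, it stood 31.9 times higher in members and 6.35 times in endothelial cells. Those other endothelial cells already stood at 193 CPM. As the choice of cells sets part of both values, they do not compare the size of the response.

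Whether the members themselves differed with the stage was asked by edgeR's quasi-likelihood test on the 6 sums. Peak and resolving were 1 library each there (peak 2 and resolving 2), assumed to vary like the rest and resolved libraries, which had 2 each. Of 3137 genes tested, 0 (0%) were called in each direction at an adjusted p of 0.05 for peak, resolving and resolved against rest, while 90, 73 and 97 had an unadjusted p under 0.05 and DESeq2 also called 0, with 45, 29 and 49. With the 11 sums of at least 5 members, 0 of 2072 genes were called in edgeR, and 34, 47 and 36 had an unadjusted p under 0.05. A count of 0 does not show that levels were alike. For the 8 GTPases the log2 differences between peak 2 alone and the rest libraries were -2.70 to -0.19, with 0 called. These contrasts depended on single libraries: without rest 2, 37 genes were called higher and 36 lower at peak, and rest 1, then the sole rest library, is also the sole one of its run.

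By suffix run, 125 of 3137 genes (3.98%) were called, and none remained without rest 1, the only library of suffixes 1 to 3 (20 without peak 2). Among the 10 with the lowest p were the bone genes Bglap2 and Bglap, with Ostn, Apoe, Cxcl10, Cpe, Gdf10, Hspa1a, Mmp13 and Cst3. Of the antiviral effectors 1 of 23 was called, Ifit3b (edgeR adjusted p = 0.0492), while the rule genes chose the cells and are not read here. With the 11 sums of at least 5 members, 128 of 2072 genes (6.18%) were called, 45 of them in both fits, and 12 of 16 collagens and matrix genes were among them. Col3a1, a fibrillar collagen, stood at a mean of 3105, 8326, 8924 and 1260 CPM in members of the 4 runs in order, and other fibroblasts ran in the same order of runs at 4059, 8569, 10120 and 3646 CPM (edgeR adjusted p = 3.33e-05 for the members). Cxcl10, listed above with 6 sums, was not called with 11 (edgeR adjusted p = 0.303). There its run means were 1181, 453, 490 and 114 CPM and those of other fibroblasts 42.4 to 63.4. Of the 213 Cxcl10 UMIs in members of rest 1, 158 came from 1 cell, so its value for that run rested largely on that cell. Irf1 was called with 11 sums (edgeR adjusted p = 0.0169), at 143, 101, 40.4 and 456 CPM in members and 154, 70.6, 57.9 and 207 in others. So was 1 of 23 antiviral effectors, Ifi27l2a (edgeR adjusted p = 0.0211), at 448, 645, 466 and 119 CPM in members. Of 4 feedback inhibitors, Socs3 was called (edgeR adjusted p = 0.026), at 680, 513, 397 and 1901 CPM. The class I gene H2-Q4 stood at 188.5, 67.4, 71.4 and 273 CPM in members (edgeR adjusted p = 0.0545 with 11 sums). Without endothelial-marked cells the counts were 81 genes with sums of at least 10 members and 7 with at least 5. Bst2, outside the rule, was not called by run in either fit (edgeR adjusted p = 0.451 and 0.282).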

How the data were processed

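Live CD45-negative joint cells were captured by droplet single-cell RNA sequencing (10x Chromium, 3′ ends). The authors deposited UMI counts per gene and cell as whole numbers, made with Cell Ranger on mm10 per the submitters' processing notes. The median of 5358 UMIs per cell was the same in all 12 libraries, and whether reads were brought to a common depth before deposit is not given in the sources used here, so depths compare deposited counts only. The files hold 27998 genes. Their 21042 barcodes were kept where more than 500 and fewer than 5000 genes were detected. No doublet caller was run, and markers of other cell types were counted instead. The authors' cell annotation was not used here.

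The members and gene lists were chosen with earlier results of these data known. Shares were compared over libraries by exact permutation tests (SciPy 1.17.1). Member counts were summed per library where at least 10 members were present and tested by the quasi-likelihood test of edgeR 4.0.16 (R 4.3.3), by label or by suffix run, with Benjamini-Hochberg adjustment over all genes tested, and DESeq2 1.42.0 as an alternative. The fits were tested on simulated data for resolved against rest only. They recovered no gene given a log2 change of 1 and most genes given a log2 change of 3. The 0 calls by label therefore cannot speak to changes of the smaller size. Libraries are pools of 3 animals, so p-values measure the spread between pools. The Wilson 95% intervals reflect the number of cells and nothing else. Member sums held 91204 to 358419 UMIs, so that 3 counts equal 8.37 to 32.9 CPM.

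The text names the 7 rule genes, the 4 genes of each list with the highest ratio and at least 20 UMIs, subset markers, 10 higher and 6 lower genes outside the lists, and up to 10 called genes by p. Socs1, Mmp3, Bst2, Irf1, Col3a1, H2-Q4 and the genes set beside endothelial cells other than those were chosen after their values were seen. Promoter letters came from the RefSeq table for GRCm38.p6. Results for 1 gene are not reported here.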

Additional observations from a re-analysis of the deposited data

How the results depend on the processing

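Of 1111 values of single-gene log2 ratios over 102 genes, 1008 moved by less than the spread between libraries, 93 by more, and 10 reversed. A reversal was counted only where the main ratio was at least 2 or at most 0.5. Ratios nearer 1 that changed direction are therefore not among the 10. For example, Cd34 went from 1.53 to 0.669 without cells of another class. Prg4 went from 0.548 to 1.22 with at least 5 members per library. The reversed log2 ratios were -0.729 for Ccl5 with UMI-matched fibroblasts, 0.961 for Clic5 and 0.754 for Tspan15 with at least 5 members per library, 0.63 for Htra4 and -0.65 for Apold1 with at least 5 interferon genes, and -0.0782 for Itga6, -0.513 for Apold1, 0.764 for Scrg1, 1.78 for Lect1 and 2.38 for Col9a3 without cells of another class. The cause was not tested.

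The share of resolving minus rest was 0.164 percentage points and became -0.0585 with at least 5 fibroblast genes, -0.0257 without cells of another class, and -0.0451 (without resolving 2) to 0.27 (without resolving 3) leaving out 1 library. The correlation with the endothelial share became 0.163 after thinning, 0.0721 without cells of another class and 0.0903 without endothelial-marked cells (chosen after seeing the data), with 0.0383 without resolved 1 and -0.139 (without resolving 2) to 0.349 (without peak 1) over all libraries left out. The part of the variance held by the run became 0.653 without cells of another class and 0.326 to 0.707 leaving out 1 library, the highest without rest 3.

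By label, the 0 calls became 6 higher and 5 lower (peak), 3 and 5 (resolving) and 11 and 14 (resolved) with no filter on low counts. Leaving out 1 library gave 0 to 37 higher and 0 to 36 lower at peak, 0 to 19 and 0 to 25 in resolving, and 0 to 36 and 0 to 38 in resolved, the highest each without rest 2. With the replicate number as a block the counts were 2 and 2, 1 and 1, and 7 and 3. The numbers paired the libraries only in part. For pairs of the same number, r was over 0.1 in 11 of 18 (median 0.45). For pairs of other numbers it was over 0.1 in 10 of 36 (median -0.238), and 7 of 12 libraries correlated best with one of their own number. By run, 125 calls became 395 with no filter, 72 with DESeq2, 81 and 7 without endothelial-marked cells (sums of at least 10 and 5 members), and 0 to 132 leaving out 1 library. A block for the run could not be fitted with sums of at least 10 members. With the 11 sums of at least 5 members, that block gave 0 calls of 2072 genes for each label. Unadjusted p was under 0.05 there for 48 (peak), 94 (resolving) and 53 (resolved) genes. The replicate number as a block on the same 11 sums also gave 0 calls for each label.

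The 133 higher genes became 633 with at least 5 interferon genes and 615 without cells of another class (2 libraries each), 54 with at least 5 members per library (11 libraries), and 155 to 211 leaving out 1 library. The 33 lower genes became 90 and 59 in the first 2 of these, 16 with UMI-matched fibroblasts, and 33 to 42 leaving out 1 library.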
